A study of Rattus norvegicus with 8 samples.

Results

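The JAK-STAT and interferon response genes Jak1, Jak2, Stat2, Stat3, Stat5b, Irf1, Irf9, Socs3 and Isg15 were followed in the rat hippocampus after an infusion of corticosterone. They were matched by gene symbol, and all 9 have a row in the authors' deposited table, which holds 16266 transcript rows of 13272 gene symbols. Stat2 and Stat5b have 2 rows each, so the 9 genes are described by 11 rows. Every row gives 1 FPKM value per group, vehicle and CORT, where FPKM counts sequenced fragments per length of transcript and per size of library, so levels can be set side by side between genes. Where a pair of levels is given, that of the vehicle group comes first.

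Whole hippocampi came from 8 adrenalectomized male rats, 4 in each group, and were measured by RNAseq. The vehicle group received 0.45% saline, and the CORT group received corticosterone, the main glucocorticoid of the rat, at 0.75 mg/mL in a complex with 2-hydroxypropyl-β-cyclodextrin. No cyclodextrin is named for the vehicle group, so hormone and carrier cannot be told apart. Both infusions ran for 30 min from ZT 2 through a jugular cannula, and the rats were killed 2 h after the start. In both groups adrenalectomy had removed the source of the hormone, and the rats drank corticosterone in saline during recovery until saline alone replaced it before the experiment. The labels give Sprague-Dawley rats aged 3 to 4 months, whereas the methods name Lister hooded rats and give a younger age. The titles of the vehicle samples call them untreated. Each group value covers 4 rats and no value per rat was used here, so no difference below carries an SD, a test or a p-value, and every comparison is one of size between 2 group values. Hippocampal neuron markers were present in both groups, with Prox1 of the dentate gyrus at 10.9 (vehicle) and 8.96 FPKM (CORT).

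Cytokines and interferons signal through receptors that have no enzyme activity of their own. Janus kinases such as Jak1, Jak2, Jak3 and Tyk2 are bound to those receptors and phosphorylate STAT proteins, which enter the nucleus and bind DNA. Type I interferon brings Stat2 and Irf9 together on the interferon-stimulated response element, interleukin 6 and its relatives act mainly through Stat3, and growth hormone and prolactin act mainly through Stat5. Socs3 is induced by this signalling and blocks it in return, and Isg15 encodes a ubiquitin-like protein that interferon induces strongly. Glucocorticoids are known for restraining many inflammatory genes in immune cells and glia.

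Promoter windows from RefSeq (assembly GRCr8, 250 bases before to 50 bases after each gene start) matched 7 of the 9 genes, all but Jak1 and Isg15, and are shown because STATs and interferon act through known letters there. The interferon-stimulated response element was searched as GAAANNGAAA, or TTTCNNTTTC on the other strand, the STAT site as TTCNNNGAA, and the core of the glucocorticoid response element as ACANNNTGT. Matches of different motifs were counted separately even where they overlap, and the STAT and glucocorticoid letters read the same on both strands. Of 33469 windows, 3.92% hold the interferon motif, 8.87% the STAT motif and 6.86% the glucocorticoid motif. Among the 7 members with a window, Irf1 and Irf9 hold a STAT site, and none holds the interferon motif or the glucocorticoid core, which says only that these letters are not in these 300 bases. The STAT letters, in capitals, start 142 bases before the gene start in Irf1 and 99 bases before it in Irf9. They are given 5′ to 3′ with 15 bases on either side, and the printed stretches lie at chr10:38417778-38417816 (Irf1) and chr15:33065722-33065760 (Irf9), both on the plus strand.
Irf1: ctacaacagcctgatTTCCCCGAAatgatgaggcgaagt
Irf9: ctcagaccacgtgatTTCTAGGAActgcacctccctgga

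Of the 11 rows, 1 was at least 1.5-fold higher in the CORT group (Socs3), 1 was at least 1.5-fold lower (Isg15), and 9 lay between. The same rule, at a mean of both groups of at least 1 FPKM, was met in the higher direction by 3.32% and in the lower direction by 3.66% of all 15434 rows that pass this filter, as do all 11 member rows. Among the 7615 rows with a mean of 1 to 10 FPKM, where both genes lie, the shares were 5.32% and 6.3%. The median log2 ratio of the 11 rows, CORT over vehicle, was 0.07, beside 0.02 for all rows, with 7 rows above 0 and 4 below. Of all rows that pass the filter, 44.4% were below 0. In whole tissue, fewer cells of a type and less RNA per cell cannot be told apart.

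**Figure D1:**
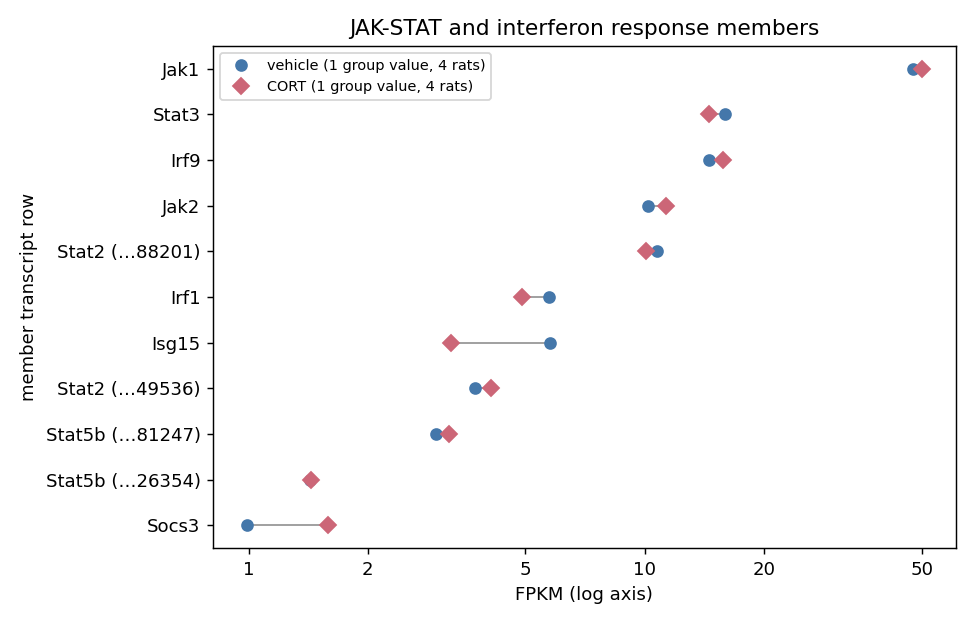
FPKM of each member row (log axis) as the authors' group value, with circles for vehicle and diamonds for CORT (4 rats each), ordered by mean level; the ends of the transcript identifiers tell the 2 rows of Stat2 and of Stat5b apart. The gaps are widest for Isg15 (5.77 and 3.23 FPKM) and Socs3 (0.991 and 1.59 FPKM), and the other 9 pairs of points lie close together.

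Isg15 (ENSRNOT00000039263.5, rn6 chr5:173624309-173626248) stood at 5.77 (vehicle) and 3.23 FPKM (CORT). It was thus 1.79-fold lower in the CORT group, a log2 ratio of -0.84. Of the 5047 rows with a mean level 0.5 to 2 times that of Isg15, 3.53% had a ratio at least as large in either direction. In the vehicle group Isg15 ranked above Irf1 and Stat5b, and in the CORT group below both.

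Socs3 (ENSRNOT00000003940.3, rn6 chr10:106975177-106976040) had the lowest level of the 9 genes in both groups. It was 0.991 FPKM with vehicle and 1.59 FPKM with CORT, 1.60-fold higher, with a log2 ratio of 0.68. This is a low level, under 1 FPKM with vehicle, so the row passed the filter through its CORT value, and 16.6% of the 2513 rows of similar level had a ratio at least as large in either direction. With a pseudocount of 1 FPKM the log2 ratio of Socs3 was 0.38, under the 1.5-fold limit, while that of Isg15 was -0.68, still past it.

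The kinases of the set were close to even. Jak1 (ENSRNOT00000064542.1, rn6 chr5:119982942-120083904), which serves interferon and interleukin 6 receptors alike, had the highest level of the 9 genes, 47.7 FPKM with vehicle and 50.1 FPKM with CORT (log2 ratio 0.07). Jak2 (ENSRNOT00000087011.1, rn6 chr1:247398597-247458509), the kinase of the growth hormone, prolactin and interferon gamma receptors, was 10.2 and 11.3 FPKM (log2 ratio 0.15). For Jak2, 36.2% of 5854 rows of similar level had a ratio at least as large.

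The STATs also differed little between the groups, and the rows of one gene did not always point the same way. Stat3 (ENSRNOT00000026760.4, rn6 chr10:88790407-88842233), the main STAT of the interleukin 6 family, was 15.9 FPKM with vehicle and 14.6 FPKM with CORT (log2 ratio -0.13). Stat2, which interferon receptors use, has rows for 2 transcripts at rn6 chr7:2691368-2707741. ENSRNOT00000088201.1 was 10.7 and 10.1 FPKM (log2 ratio -0.09), and ENSRNOT00000049536.4 was 3.72 and 4.10 FPKM (log2 ratio 0.14). Summed over both, Stat2 was 14.5 FPKM with vehicle and 14.2 FPKM with CORT, so the opposite signs cancelled almost fully. Stat5b, a STAT of growth hormone and prolactin signalling, has rows for 2 transcripts at rn6 chr10:88686206-88754829, beside Stat3 on chromosome 10 with Stat5a (chr10:88764731-88789057) between them. ENSRNOT00000081247.1 was 2.98 and 3.21 FPKM (log2 ratio 0.11), and ENSRNOT00000026354.3 was 1.43 FPKM in both groups. Together they made 4.40 FPKM with vehicle and 4.64 FPKM with CORT.

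The interferon regulatory factors of the set pointed in opposite directions, neither past 1.5-fold. Irf9 (ENSRNOT00000026364.4, rn6 chr15:34282935-34288138), the DNA-binding partner of Stat2, was 14.6 FPKM with vehicle and 15.8 FPKM with CORT (log2 ratio 0.12). Irf1 (ENSRNOT00000010968.6, rn6 chr10:39109521-39116531), an activator that interferon gamma induces, was 5.75 and 4.89 FPKM (log2 ratio -0.23). That was the largest ratio in either direction among the 9 rows within 1.5-fold, of which 7 lay within 0.15 of 0 on the log2 scale. In percent, these 9 rows ran from -14.9 to 11.2 relative to vehicle.

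The rest of the pathway was read from 163 other genes grouped by role, of which 120 have a row. Of their 120 rows at a mean of 1 FPKM or more, 2 were at least 1.5-fold higher in the CORT group and 17 at least 1.5-fold lower, 1.67% and 14.2%, beside 3.32% and 3.66% of all rows. Of the 17 lower rows, those of Clcf1 and Ptpn6 were under 1 FPKM with CORT and passed the filter through their vehicle values. With a pseudocount of 1 FPKM, 10 of the 17 stayed past the limit, and Clcf1, Lepr, Usp18, Fgl2, Tmem173, Mx2 and Psmb9 did not, beside 2.02% of all rows that were lower by that measure. The median log2 ratio of the 120 rows was -0.14, and 83 rows lay below 0, beside 44.4% of all rows that pass the filter. The lower rows were spread over ligands, receptors, an interferon regulatory factor, inhibitors and targets, with 9 of the 17 among interferon-stimulated genes.

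Signals and receptors showed no common direction. Of 19 ligands, 13 have no row, among them Il6, Ifnb1 and Ifng, and of 5 ligand rows that pass the filter Clcf1, a ligand of the ciliary neurotrophic factor receptor, was 1.54 FPKM with vehicle and 0.963 FPKM with CORT (log2 ratio -0.68, or -0.37 with a pseudocount of 1 FPKM). Cntf, ciliary neurotrophic factor itself, was 6.36 and 5.42 FPKM, and Il15, a cytokine of lymphocytes, was 1.61 and 1.42 FPKM, both within 1.5-fold. Of 16 receptor rows, 1 was higher and 1 lower, 6.25% each, beside 3.32% and 3.66% of all rows. Il6r, the binding subunit for interleukin 6, was 6.14 FPKM with vehicle and 10.9 FPKM with CORT, 1.78-fold higher. Lepr, the leptin receptor, was 2.02 and 1.03 FPKM (log2 ratio -0.98), and Lifr, the receptor for leukaemia inhibitory factor, was 2.26 and 3.21 FPKM (log2 ratio 0.51), within the limit. Of the receptor genes Il6st, Ifnar1 and Ifngr1, none differed by 1.5-fold in its major row, with Il6st, shared by the interleukin 6 family, at 17.0 and 16.8 FPKM, Ifnar1 of the type I interferon receptor at 20.5 and 21.0 FPKM, and Ifngr1 of the interferon gamma receptor at 28.8 and 31.3 FPKM.

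The other kinases, Jak3 and Tyk2, were within 1.5-fold, with log2 ratios of -0.08 and -0.02. So were the 4 rows of the other STATs, of which 3 lay below 0, with Stat5a, at 1.43 and 1.08 FPKM, at a log2 ratio of -0.40. Of 11 rows of other interferon regulatory factors and their Irf2 binding proteins, 1 was past the limit. It was Irf8, a factor of microglia and other myeloid cells, at 7.52 (vehicle) and 3.40 FPKM (CORT), 2.21-fold lower. Lower rows thus made 9.09% of this list and 3.66% of all rows. Irf7, which amplifies the interferon response, was 4.51 and 3.27 FPKM (log2 ratio -0.46), and the rows of Irf5, a factor of myeloid cells, had log2 ratios of -0.42 and -0.38.

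Of 17 rows of other inhibitors, 2 were at least 1.5-fold lower (11.8%) and none higher, beside 3.66% and 3.32% of all rows. Usp18, which removes Isg15 from proteins and blocks the type I interferon receptor, was 2.87 FPKM with vehicle and 1.67 FPKM with CORT (log2 ratio -0.78, or -0.53 with a pseudocount of 1 FPKM). A row of Ptpn6, a phosphatase of blood and microglial cells, was 1.82 and 0.598 FPKM (log2 ratio -1.61), passing the filter through its vehicle value, while its other row was 4.08 and 3.62 FPKM. Ptpn1, a phosphatase that acts on Jak2 and Tyk2, was 19.4 and 26.1 FPKM (log2 ratio 0.43), within the limit. Thus Socs3 was the only inhibitor row past 1.5-fold in the higher direction, at the low level given above.

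Known targets of Stat3 or Stat5 were divided. Of 17 rows, 3 were at least 1.5-fold lower (17.6%), 1 was higher (5.88%), and the median log2 ratio was 0.21. The shares of all rows were 3.66% lower and 3.32% higher. Timp1, a metalloproteinase inhibitor that reactive glia produce, was 13.3 FPKM with vehicle and 4.45 FPKM with CORT (log2 ratio -1.58). Gfap, the intermediate filament of astrocytes, was 970 and 517 FPKM (log2 ratio -0.91), and Fgl2, a fibrinogen-like protein of immune cells named after its value was seen, was 3.13 and 1.79 FPKM (log2 ratio -0.81). The higher row was a minor transcript of Hif1a, at 1.17 and 2.69 FPKM, and the major row was 21.7 and 20.6 FPKM.

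**Figure D2:**
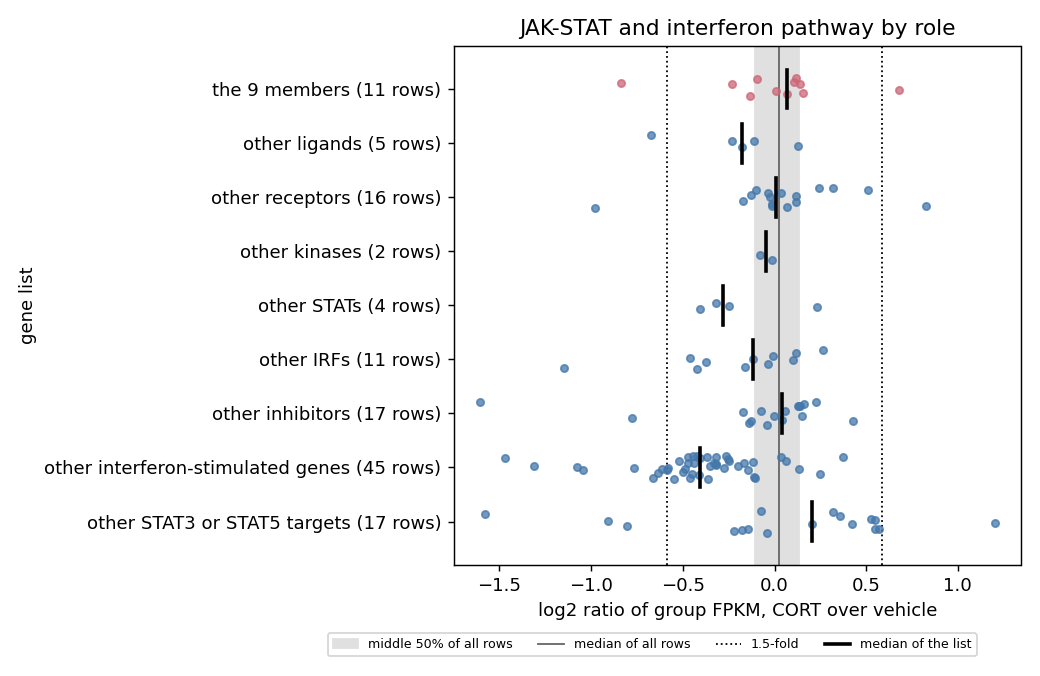
Log2 ratio of the authors' group FPKM values, CORT over vehicle, for every row with a mean of at least 1 FPKM, by role; thick bars are list medians, the grey band holds the middle 50% of all rows and dotted lines mark 1.5-fold. Interferon-stimulated genes have the lowest list median, -0.40, and STAT3 or STAT5 targets the highest, 0.21.

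Interferon-stimulated genes other than Isg15 lay mostly on the lower side. Of 67 such genes 49 have a row, and of 45 rows that pass the filter 40 were below 0 and 5 above, with a median log2 ratio of -0.40. Below 0 were 44.4% of all rows that pass the filter and 49.7% of rows at 1 to 10 FPKM. None was 1.5-fold higher and 9 were 1.5-fold lower, 20% of the rows, beside 3.66% of all rows and 6.3% of rows at 1 to 10 FPKM. At a limit of 1.2-fold, 32 of the 45 rows were lower and 1 was higher, beside 11.7% and 11.3% of all rows. Several genes of this list belong to families, whose likeness in sequence was not computed here. Without the Ifitm, Gbp, Oas, Mx, Ifi44, Psmb and Tap families, 2 of 32 rows were 1.5-fold lower, a share of 6.25% that is near the background at low levels, whereas the median was still -0.32 and 21 of the 32 rows were 1.2-fold lower. With Psmb and Tap kept and the Ifit, Ifi27, Igtp, Irgm and Ifi47 genes left out in their place, 3 of 28 rows were 1.5-fold lower (10.7%), with a median of -0.34.

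The 9 lower rows include the 3 with the largest ratios, and the other 6 are named after their values were seen. Psmb8, a catalytic subunit of the immunoproteasome, was 3.19 FPKM with vehicle and 1.15 FPKM with CORT, 2.77-fold lower. Ifitm1, a membrane protein that restricts virus entry, was 7.12 and 2.87 FPKM, 2.48-fold lower. Gbp2, a guanylate-binding protein induced by interferon gamma, was 4.00 and 1.89 FPKM, 2.11-fold lower. Ifi47, an interferon-induced GTPase, was 3.01 and 1.46 FPKM, 2.06-fold lower. These 4 exceeded Isg15 in fold, and the other 5 did not. The more abundant relatives of Ifitm1 were also lower, with Ifitm2 at 25.3 and 14.9 FPKM and Ifitm3 at 22.3 and 14.1 FPKM. Tmem173, the DNA-sensing adaptor STING, was 1.99 and 1.28 FPKM, and the antiviral GTPase Mx2 was 5.82 and 3.80 FPKM. Psmb9, another immunoproteasome subunit, was just inside the limit at 11.1 and 7.41 FPKM (log2 ratio -0.59), and Rtp4 just outside it at 3.75 and 2.51 FPKM (log2 ratio -0.58). The most abundant row by the mean of both groups, B2m, the light chain of class I antigen presentation, was 241 and 210 FPKM (log2 ratio -0.20). Ifi27, a gene that interferon alpha induces, was about as abundant and pointed the other way, at 207 and 216 FPKM in its major row (log2 ratio 0.06) and 74.5 and 88.4 FPKM in its other row (log2 ratio 0.25).

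**Figure D3:**
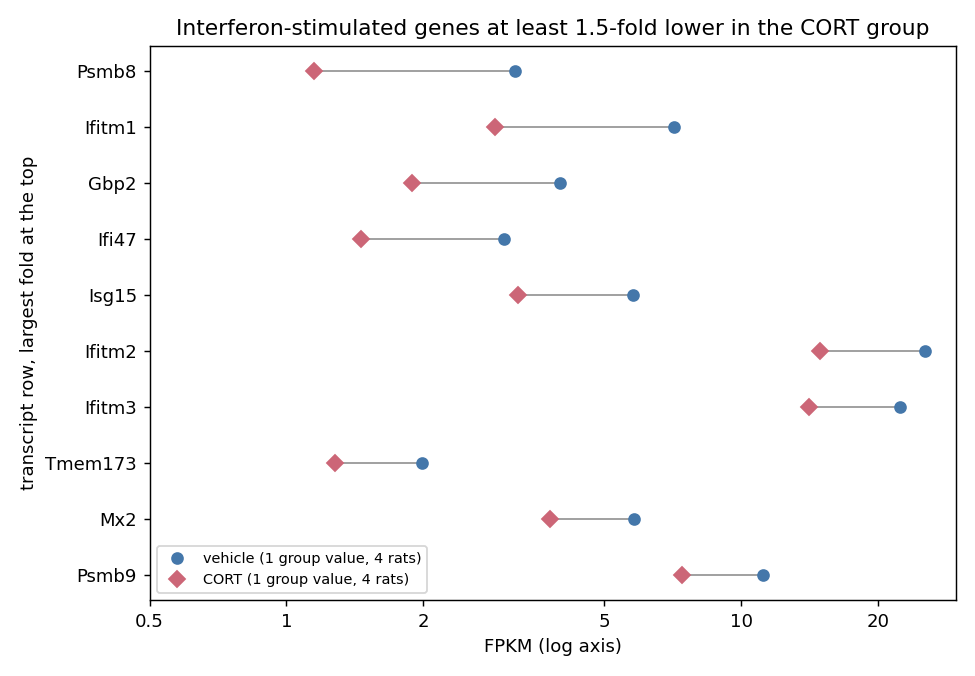
FPKM (log axis) of Isg15 and the 9 other interferon-stimulated rows at least 1.5-fold lower in the CORT group, with circles for the vehicle group value and diamonds for the CORT group value (4 rats each), largest fold at the top. Psmb8 is lower by 2.77-fold and Ifitm2 and Ifitm3 are the most abundant of the 10.

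Among the 10 lower interferon-stimulated genes, Isg15 included, 6 have a RefSeq promoter window, and 4 of these hold the interferon motif, as do 16 of the 25 windows of the list's genes that passed the filter and were not lower. The motif was thus present in windows of both sets, beside 3.92% of all windows. The 4 stretches are shown 5′ to 3′ on the gene's strand with the motif in capitals and 15 bases on either side. The motif itself starts 31 bases before the gene start in Gbp2, 4 in Psmb8, 33 in Ifitm2 and 44 in Ifitm3. The printed stretches lie at chr2:234005681-234005720 (Gbp2, plus strand), chr20:4657011-4657050 (Psmb8, minus strand), chr1:205482357-205482396 (Ifitm2, minus strand) and chr1:205541778-205541817 (Ifitm3, minus strand). Ifitm2 and Ifitm3 carry the same 10 letters in the motif.
Gbp2: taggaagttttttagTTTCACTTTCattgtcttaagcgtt
Psmb8: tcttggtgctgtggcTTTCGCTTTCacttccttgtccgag
Ifitm2: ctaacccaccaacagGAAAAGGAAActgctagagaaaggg
Ifitm3: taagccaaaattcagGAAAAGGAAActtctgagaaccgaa

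The glucocorticoid core was in none of the 6 windows of the lower genes and in 3 of the 25 others. STAT sites were in 3 of the 6 and 4 of the 25. Irf8, the lower interferon regulatory factor, holds 2 STAT sites, the first starting 180 bases before the gene start and printed with 15 bases on either side (stretch at chr19:65699089-65699127, plus strand).
Irf8: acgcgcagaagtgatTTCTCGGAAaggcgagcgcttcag

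Markers of several cell types also had medians below 0, and their part in the result for the interferon-stimulated genes was not tested. None of the marker rows was at 0 in either group. Counts and medians cover the rows that pass the filter, and summed levels cover every row of a list. Of all rows that pass, 3.32% were 1.5-fold higher and 3.66% lower, or 5.32% and 6.3% at 1 to 10 FPKM. Among the lower marker rows, Ptprc of microglia and macrophages (1.79 and 0.617 FPKM) and Foxc1 of meningeal fibroblasts (1.73 and 0.754 FPKM) passed the filter through their vehicle values. Of 22 rows of microglia and macrophages, the main immune cells of the brain, 5 were 1.5-fold lower (22.7%) and 1 higher (4.55%). The median log2 ratio was -0.30, and the summed level was 596 FPKM with vehicle and 521 FPKM with CORT. The most abundant microglial marker, Ctss, was 139 and 144 FPKM, Aif1 was 52.9 and 36.4 FPKM, Cx3cr1 was 15.6 and 10.6 FPKM, and P2ry12 was 12.8 and 11.1 FPKM. The higher row was that of Tmem119, at 5.72 and 11.2 FPKM (log2 ratio 0.96). Meningeal fibroblast markers were lower in 9 of 14 rows (median -0.78, summed 145 and 101 FPKM, led by Mgp at 42.5 and 36.5 FPKM), and Col1a2 has no row. Blood cell markers were lower in 4 of 8 rows and higher in 1 (median -0.45, summed 1434 and 830 FPKM, led by Hba1 at 583 and 347 FPKM), and 7 of the 14 blood markers have no row. The 4 lower rows were all of red blood cells, namely Hba1, Hba2, Hbb and Alas2. The white cell rows were not lower, with log2 ratios of 0.45 for S100a8, 0.66 for S100a9, and -0.14 and -0.07 for Cd3e, all but S100a9 within 1.5-fold. Endothelial markers were lower in 2 of 14 rows (median -0.16, summed 136 and 113 FPKM, led by Cldn5 at 50.8 and 45.6 FPKM), and Pecam1 and Ly6c have no row.

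Astrocyte markers were lower in 3 and higher in 4 of 24 rows, 12.5% and 16.7%, beside 3.66% and 3.32% of all rows. Their median was -0.05, and the sum was 3417 and 3020 FPKM, led by S100b at 1066 and 1095 FPKM. Gfap, the row also counted among the Stat3 or Stat5 targets, was 970 and 517 FPKM. Its gap was wider than that of the sum, so the other astrocyte rows together were not lower. Of the 4 higher rows, 3 were minor rows of Aqp4, Aldh1l1 and Aldoc that were under 1 FPKM with vehicle and passed the filter through their CORT values. Oligodendrocyte markers were lower in 1 and higher in 1 of 21 rows, 4.76% each, near the shares of all rows. Their median was -0.22, lower than that of the endothelial markers, and the sum was 7884 and 6500 FPKM, led by Mbp. Neuronal markers were past the limit in none of 18 rows (median 0.17, summed 3608 and 3836 FPKM, led by Snap25 at 1178 and 1155 FPKM). Choroid plexus markers were past it in none of 12 rows (median -0.02, summed 6824 and 6807 FPKM, led by Ttr at 6605 and 6598 FPKM), and Otx2 has no row.

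**Figure D4:**
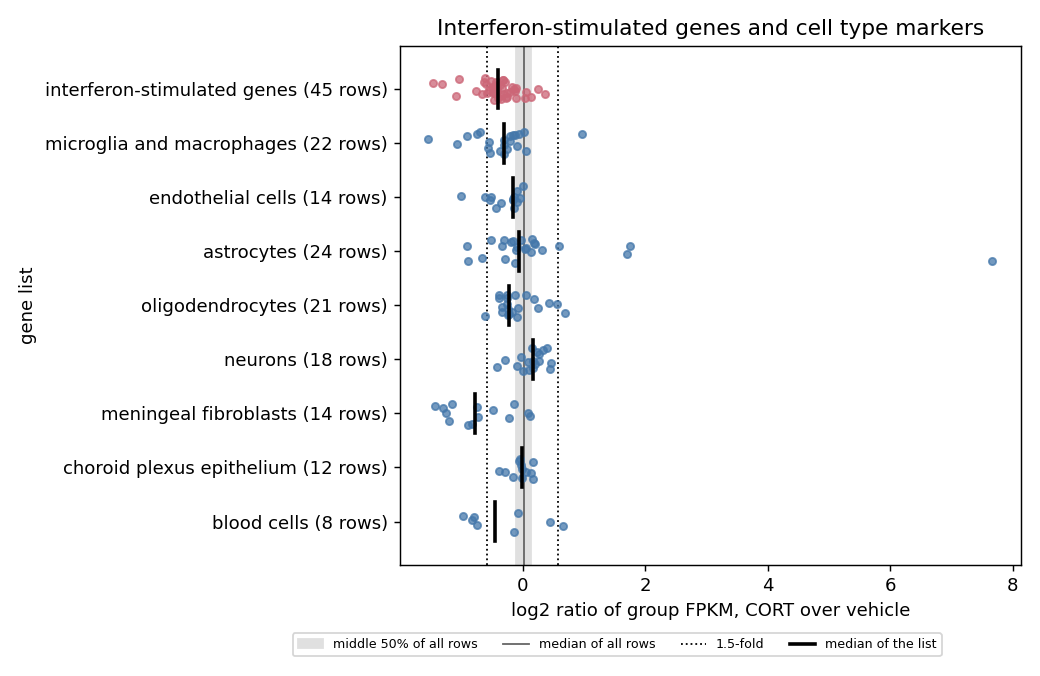
Log2 ratio of the authors' group FPKM values, CORT over vehicle, for rows with a mean of at least 1 FPKM in the interferon-stimulated list and 8 marker lists; thick bars are list medians, the grey band holds the middle 50% of all rows and dotted lines mark 1.5-fold. Meningeal fibroblasts (-0.78), blood cells (-0.45), interferon-stimulated genes (-0.40) and microglia and macrophages (-0.30) have the lowest medians.

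For scale, genes that glucocorticoids are known to induce were higher in the CORT group in 8 of 10 rows, beside 3.32% of all rows. Fkbp5, a chaperone partner of the glucocorticoid receptor, was 18.6 FPKM with vehicle and 33.8 FPKM with CORT (log2 ratio 0.86), and the major row of Tsc22d3 was 36.5 and 69.6 FPKM (log2 ratio 0.93). The log2 ratio of Isg15, -0.84, was of similar size with the opposite sign, but at a lower level. With a pseudocount of 1 FPKM it was -0.68, beside 0.83 for Fkbp5 and 0.91 for the major row of Tsc22d3. The receptors themselves were within 1.5-fold, with Nr3c1, the glucocorticoid receptor, at 23.2 and 18.3 FPKM in its major row and Nr3c2, the mineralocorticoid receptor, at 24.1 and 30.2 FPKM.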

How the data were processed

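Reads of 8 stranded total RNA libraries were processed by the authors with CASAVA 1.8.2, TopHat2 2.0.10 and Cuffdiff 2.2.0 on rn6, per the submitters' processing notes, with geometric normalization and a minimum alignment count of 10. The authors deposited 1 FPKM value per transcript and group, and both group columns were used as deposited. The table's log2 fold change, test statistic, p-value, q-value and significance columns hold the authors' own comparison and were not used. The table gives neither a value per rat nor a read total per library, so no precision is given for a single FPKM value.

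Log2 ratios (CORT over vehicle) were taken without a pseudocount. Rows with a mean of both groups of at least 1 FPKM were counted as higher or lower at 1.5-fold. Genes and lists were chosen with earlier results of these data known. Besides the 9 genes, the text names up to 3 symbols per role with the largest log2 ratio among rows that pass, a few receptors, and others marked as named later. Rtp4, B2m, Ifi27 and single cell type markers were named outside this rule. One gene that this rule names is not reported here. Promoter windows were RefSeq GRCr8, and protein sequences were not used here. Counting was tested on simulated data. Python 3.11.15, numpy 2.4.6, pandas 2.3.3 and matplotlib 3.10.9 were used. Alternatives were pseudocounts of 0.1 and 1 FPKM, other filters, summed transcripts, centring and fold limits of 1.2 and 2.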

Additional observations from a re-analysis of the deposited data

How the results depend on the processing

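No paired analysis was possible because each group has a single value, and leaving out single rats was not run for the same reason. With a pseudocount of 1 FPKM, 0 member rows were higher, 10 of 120 other pathway rows were lower (2.02% of all rows were), and the interferon-stimulated median was -0.29. With no filter, 14 of 55 interferon-stimulated rows were lower (4.91% of all rows). At a mean of at least 5 FPKM, 0 of 6 member rows were higher and 0 lower, pathway rows were higher in 1 and lower in 6 of 60, interferon-stimulated rows were lower in 3 of 16 (1.64% of all rows were higher and 1.41% lower), and the member median was -0.01. At 1.2-fold, pathway rows were higher in 14 and lower in 46 of 120, and interferon-stimulated rows higher in 1 and lower in 32 of 45 (11.3% and 11.7% of all rows). At 2-fold, 0 of 11 member rows were higher and 0 lower, pathway rows were higher in 1 and lower in 7 of 120, and interferon-stimulated rows were lower in 4 of 45 (1.35% and 1.30% of all rows). Without gene families, 2 or 3 interferon-stimulated rows were lower, depending on the families chosen. The interferon-stimulated counts and the families left out were chosen after seeing the data. The cause of these moves was not tested. A pseudocount of 0.1 FPKM, summed transcripts and centring kept every member, pathway and interferon-stimulated count within 1.5 times its value. The background moved further with summed transcripts, where 1.52% of all 12808 symbols were higher and 2.87% lower. The Stat5b row at a log2 ratio of 0.0073 changed sign on centring.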

Other observations

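Among the 9 genes and the other pathway genes, 18 symbols have several rows, and in 8 of these the rows had opposite signs. The genes named here were chosen after their values were seen. Tap1, a peptide transporter of antigen presentation, has a row at 0.997 (vehicle) and 0.175 FPKM (CORT) and another at 3.10 and 2.25 FPKM. Lgals9, a galectin, has a row at 10.7 and 7.84 FPKM and another at 1.26 and 1.63 FPKM. Stat6, the STAT of interleukin 4, has rows at 5.60 and 4.71 FPKM and at 1.26 and 1.48 FPKM. Some rows under 1 FPKM on average had wide ratios. Prl, the pituitary hormone prolactin, was 1.39 and 0.190 FPKM, and Cxcl10, a chemokine that interferon induces, was 1.07 and 0.284 FPKM. A row of Prlr, the prolactin receptor, pointed the other way, at 0.297 and 1.17 FPKM.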
